A study of Mus musculus with 14 samples.

Results

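Long intergenic noncoding RNAs (lincRNAs) were the 221 rows of the count table whose biotype was given as lincRNA and that did not lie on chromosome X or Y, of 12421 rows in all. The table held 228 lincRNA rows, and the 7 on X or Y were left out. The RNA came from 14 libraries of 8 mouse T-cell acute lymphoblastic leukaemias (VTL tumours) induced by the oncogene Lmo2, a cofactor of blood progenitor transcription factors. Thymocytes had been transplanted into irradiated C57BL/6-Ly5.1;FVB F1 mice, and frozen leukaemia cells were then injected into C57BL/6-Rag1-/- mice, which lack mature B and T cells of their own. Donor tumour cells carrying both CD45.1 and CD45.2 were sorted from the spleen. Each tumour carries a number of its own in the labels. By the labels 2 depended on Lmo2 (dependent class, VTL-24 and VTL-19), 3 were evolving (VTL-153, VTL-25, VTL-21) and 3 were independent of it (VTL-44, VTL-33, VTL-81). All 8 were sequenced from hosts that received no doxycycline (Dox). The 6 evolving and independent ones were sequenced again from hosts fed Dox pellets (600 mg/kg). The labels used here give neither the promoter of the Lmo2 transgene nor the direction in which Dox acts on it.

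LincRNAs are transcribed by RNA polymerase II from loci between protein-coding genes and are usually spliced and polyadenylated, but encode no long protein. Some act in the nucleus, such as Malat1 in speckles and Neat1 in paraspeckles, and some serve mainly as hosts from which small nucleolar RNAs or microRNAs are cut. Many others have no known product, and act, where they act at all, on genes next to them or only through being transcribed. They are known for tighter restriction to cell types than protein-coding genes, and several mark stages of T-cell development.

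The name lincRNA did not hold for every row in a later annotation. In GENCODE M21 (mouse build mm10), which lists 215 of the 221, 158 were typed as lincRNA, 25 as processed transcripts, 14 as antisense, 11 as transcripts of a bidirectional promoter, 4 as protein coding (B230217C12Rik, AI854703, Fam169b and Platr25), 2 as transcribed pseudogenes and 1 as sense intronic. For 45 of the 221, exonic bases were shared with another listed gene, in 37 cases on the opposite strand. The labels do not state a strand setting for the counting, so that reads of such a pair cannot be told apart. Chromosome 5 held 36 of the lincRNAs (16.3%), against 6.75% of all rows, and 13 of the 20 lincRNAs that carry only a clone name (RP23 or RP24) lay there.

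The start regions of 4 lincRNAs on which the results turn are shown, as 250 bases before and 50 bases after the start in RefSeq (GRCm38.p6), in which 117 of the 221 had an entry. A630023P12Rik and 2610035D17Rik rose with Dox in the evolving tumours, Gm16938 fell with Dox there, and 1500035N22Rik was low in the independent tumours. Capitals mark matches, on either strand, to 4 short words that factors of lymphoid cells bind, each searched by its letters alone. An E-box word, CAGATG, stood in 17.2% of 32851 RefSeq promoters of the same length. The word of GATA factors, which are early regulators of the T lineage, was taken as AGATAA and stood in 11.2% of them. For RUNX factors, needed in every stage of thymic development, TGTGGT was searched and found in 16.8%. The core of the sites bound by Ikaros, the factor named in the title of the study, was taken as TGGGAA and stood in 25.6%. A match is a description and not a bound site.
A630023P12Rik (chr5:110514673-110514972, plus strand): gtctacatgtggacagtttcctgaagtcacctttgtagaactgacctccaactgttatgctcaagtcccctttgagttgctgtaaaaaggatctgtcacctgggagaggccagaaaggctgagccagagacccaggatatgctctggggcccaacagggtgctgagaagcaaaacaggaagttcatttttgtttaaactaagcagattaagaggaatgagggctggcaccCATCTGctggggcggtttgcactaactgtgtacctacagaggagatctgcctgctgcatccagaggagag
2610035D17Rik (chr11:113201789-113202088, minus strand): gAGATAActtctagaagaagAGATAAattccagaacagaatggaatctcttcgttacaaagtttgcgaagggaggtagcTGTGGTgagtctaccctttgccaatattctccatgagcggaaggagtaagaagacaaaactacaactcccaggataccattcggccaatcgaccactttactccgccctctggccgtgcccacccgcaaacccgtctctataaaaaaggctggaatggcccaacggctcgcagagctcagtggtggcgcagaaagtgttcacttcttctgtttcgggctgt
Gm16938 (chr7:98176944-98177243, plus strand): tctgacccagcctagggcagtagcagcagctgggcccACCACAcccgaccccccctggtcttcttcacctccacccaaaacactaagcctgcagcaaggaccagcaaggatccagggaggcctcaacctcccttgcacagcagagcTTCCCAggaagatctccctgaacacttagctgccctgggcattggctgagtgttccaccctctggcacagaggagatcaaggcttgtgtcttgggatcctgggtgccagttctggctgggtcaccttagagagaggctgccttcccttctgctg
1500035N22Rik (chr5:24985592-24985891, plus strand): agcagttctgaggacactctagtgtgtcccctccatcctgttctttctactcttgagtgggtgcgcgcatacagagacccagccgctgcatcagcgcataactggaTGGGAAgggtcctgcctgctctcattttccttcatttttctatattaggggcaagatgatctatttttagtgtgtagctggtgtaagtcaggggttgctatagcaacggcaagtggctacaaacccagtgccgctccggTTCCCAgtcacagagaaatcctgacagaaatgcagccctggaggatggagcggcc
The E-box of A630023P12Rik began 20 bases before the start, at -20 on the reverse strand. The start region of 2610035D17Rik held the GATA word at -249 and -230 and the RUNX word at -171. In that of Gm16938, reverse matches to the RUNX and Ikaros words lay at -213 and -104, and 1500035N22Rik held the Ikaros word at -144 and, on the reverse strand, at -5. No word was shared by A630023P12Rik and 2610035D17Rik. Among the other lincRNAs that rose with Dox in the evolving tumours, the start region of Gm11454 held no match. B230323A14Rik and Gm13346 had no entry.

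The deposited counts summed to 18214415 to 24048281 per library, and levels are CPM, each count scaled by its library's total after TMM normalization. Lmo2 itself stood at 303 to 708 CPM in the evolving and 120 to 142 CPM in the dependent tumours without Dox. In the independent tumours without Dox it stood at 9.28 CPM (VTL-44), 600.3 CPM (VTL-33) and 27.2 CPM (VTL-81), so that VTL-33 lay within the range of the evolving ones. Every one of the 6 pairs had less of it with Dox, VTL-33 then having 1.32 CPM. The 8 T-lineage markers (Cd3d, Cd3e, Cd3g, Cd5, Thy1, Lck, Lat and Cd2) summed to 3390 to 5720 CPM in every library. The 3 evolving tumours without Dox shared the same leading pair of T-cell receptor beta segments, Trbv24 and Trbv13-1. Their log2 CPM correlated at 0.934 to 0.978 over all genes and at 0.9 to 0.951 over the lincRNAs, against 0.865 to 0.953 and 0.726 to 0.94 for the remaining 25 pairs. The p-values of comparisons that use them therefore measure the spread between libraries that may be less independent than their separate numbers say.

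LincRNAs were scarce and varied more between tumours than protein-coding genes. Together they held 0.375% to 0.84% of the counts of a library, and the median lincRNA had 56 to 91 counts per library. Their median level over the 14 libraries was 3.95 CPM, against 38.7 CPM for protein-coding genes, and 1.95 against 8.53 CPM per kilobase of exon. At least 1 CPM in all 14 libraries was reached by 119 lincRNAs (53.9%), against 81.3% of protein-coding genes. The SD of log2 CPM over the 8 tumours without Dox had a median of 0.591 for lincRNAs and 0.320 for protein-coding genes. Low levels were not particular to lincRNAs. The 160 antisense rows of the table had a median of 3.11 CPM, or 2.13 CPM per kilobase of exon. Of them 50% reached at least 1 CPM in all libraries, and their median SD was 0.486. Low counts also widen this SD, and the part that depth plays in it was not tested.

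The most abundant lincRNA was Malat1, a nuclear speckle RNA, with a mean of 1205 CPM, a lowest value of 486 CPM in VTL-81 without Dox and a highest of 2420 CPM in VTL-19. It took 12.7% to 34.3% of all lincRNA counts. Yam1 (mean 1189 CPM) and Gm26917 (345 CPM) took another 7.51% to 39.2%. Yam1 ran from 248 CPM in VTL-25 with Dox to 2481 CPM in VTL-153 without Dox. The next were Fam169b (267 CPM), AI662270 (258 CPM), AI504432 (191 CPM), 1700020I14Rik (185 CPM), 5830405F06Rik (99.3 CPM), RP23-110C17.2 (93.7 CPM) and 1110038B12Rik (73.6 CPM). None of these 10 passed the threshold in any of the 7 comparisons.

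Dox in the evolving tumours was followed by a change of 6 lincRNAs. Of 218 tested, 5 rose (2.29%), against 1.1% of all 12360 genes tested, and 1 fell (0.459%), against 1.03% of all genes. The threshold was an adjusted p of 0.05 in edgeR's quasi-likelihood test, paired by tumour. Over all 218 the median log2 change was 0.02, against -0.0022 for all genes. A fitted change of at least 2-fold in either direction was found in 26.6%, against 16.9% of all genes. Fitted changes are wider at low counts, and the part that the low level of lincRNAs plays in this share was not tested. With tumour not used as a block 3 lincRNAs were called, without VTL-153 2, without VTL-33 2, and without VTL-25 0. The share of all genes called in these refits is not given here, so the fall cannot be compared with that of other genes. The VTL-25 pair differed in its leading T-cell receptor beta segment, Trbv24 without and Trbv5 with Dox, and deviations from the group means correlated between its libraries at 0.00841. In the VTL-21 pair Trbv24 led in both libraries, but the second segment was Trbv13-1 without and Trbv13-2 with Dox, and the correlation was 0.133. The part of these differences in the 6 calls was not tested. At an unadjusted p under 0.05 stood 37 of 218 lincRNAs (17%) and 16.7% of all genes. DESeq2 called 26 lincRNAs (11.9%, against 10.6% of all genes) and limma voom 3 (1.38%, against 3.45%).

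A630023P12Rik, which M21 places at chromosome 5, 110514923 to 110525980, showed the largest of these rises. Its level went from 0.900 to 31.4 CPM (VTL-153), from 0.681 to 52.97 CPM (VTL-25) and from 0 to 4.52 CPM (VTL-21). Every library with Dox was above every evolving library without it. The log2 change was 5.96 (SE 0.69, n = 3 tumours, adjusted p = 0.0157), where the SE is approximate and comes from the F statistic of the change. In VTL-44 the level was 0.397 CPM without and 0.390 CPM with Dox, in VTL-33 it was 9.56 and 42.6 CPM, and in VTL-81 it was 42.4 and 47.0 CPM. Both dependent tumours had no count. The independent tumours thus spanned nearly the whole range of the evolving ones, with VTL-44 at the low end under both conditions. Its nearest listed protein-coding gene, Galnt9, which encodes an enzyme that starts O-linked glycan chains, lies 18375 bases away. Galnt9 was near 0 in VTL-153 (0 and 0.0506 CPM) and VTL-21 (0 and 0.0982 CPM), went from 0.240 to 5.55 CPM (VTL-25), and did not pass the test (log2 change 4.39, SE 1.62, adjusted p = 0.237). The call of A630023P12Rik was lost by limma voom (adjusted p = 0.0528), with no replicate block (0.257) and without VTL-25 (0.0831).

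Gm13346 (chromosome 2, 19676711 to 19686157) rose in the same 3 tumours. It went from 0.8 to 31.2 CPM (VTL-153), from 0.801 to 32.9 CPM (VTL-25) and from 0 to 0.884 CPM (VTL-21), a log2 change of 5.42 (SE 0.52, adjusted p = 0.0142). The groups did not overlap, but VTL-21 with Dox was close to the level of the other evolving tumours without Dox. Independent tumours fell into the same split as for A630023P12Rik. VTL-44 had no count with or without Dox, whereas VTL-33 had 16.7 CPM without and 15.0 CPM with Dox, and VTL-81 had 13.2 and 5.36 CPM. Of the dependent tumours VTL-24 had 2.95 CPM and VTL-19 none. Its neighbour Otud1, which encodes a deubiquitinase, had a log2 change of 0.65 (SE 0.63, adjusted p = 0.701). The call was lost with no replicate block (adjusted p = 0.393), without VTL-153 (0.0587) and without VTL-25 (0.0782).

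2610035D17Rik, a long transcription unit on chromosome 11 (113043895 to 113201838), rose from lower levels. It had 1, 3 and 2 counts (0.05, 0.120 and 0.0899 CPM) in VTL-153, in VTL-25 and in VTL-21 without Dox and 22, 89 and 29 counts (1.11, 4.41 and 1.42 CPM) with Dox. The groups did not overlap, and the log2 change was 4.51 (SE 0.61, adjusted p = 0.0196). Among the independent tumours VTL-33 was highest, at 9.69 CPM without and 19.8 CPM with Dox. VTL-81 followed at 2.93 and 4.53 CPM and VTL-44 at 0.745 and 0.438 CPM. Of the dependent tumours VTL-24 had 28 counts (1.309 CPM), above VTL-153 with Dox, and VTL-19 had none. Its neighbour Slc39a11, which encodes a zinc transporter, had a change of the opposite sign that did not pass (-0.89, SE 0.19, adjusted p = 0.0702). The call was lost by limma voom (adjusted p = 0.0617), with no replicate block (0.186), and without VTL-153 (0.0609), VTL-25 (0.0926) or VTL-33 (0.0739).

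B230323A14Rik (chromosome 9, 69758740 to 69830845) was the 1 lincRNA called both for Dox in the evolving tumours and for the independent class. It went from 0.5 to 4.55 CPM (VTL-153), from 0.481 to 10.7 CPM (VTL-25) and from 0.180 to 3.49 CPM (VTL-21), a log2 change of 3.95 (SE 0.58, adjusted p = 0.0250). The dependent tumours stood at 0.234 and 0.210 CPM. In the independent tumours it was present without Dox already, at 8.24, 8.82 and 8.37 CPM in VTL-44, in VTL-33 and in VTL-81, and at 2.58, 3.97 and 10.8 CPM with Dox. Independent tumours without Dox differed from the average of the other 2 classes by 4.83 (SE 0.44, adjusted p = 0.0117), with no overlap. The gene lies across Foxb1, a forkhead transcription factor gene of the opposite strand, with starts 2200 bases apart and 418 of its 2931 exonic bases within exons of Foxb1, and M21 types it as antisense. Foxb1 rose with Dox from 1.05, 0.962 and 0.629 CPM to 22.1, 39.9 and 10.4 CPM in the same tumours (log2 change 4.61, SE 0.35, adjusted p = 0.00856) and was at 21.6 to 28.2 CPM in the independent tumours without Dox. Unless strand was counted, which the sources used here do not state, reads of both genes in the shared bases cannot be told apart. The Dox call was lost by limma voom (adjusted p = 0.0680) and without VTL-153 (0.0579), VTL-25 (0.110) or VTL-33 (0.0585), and the class call was lost without VTL-24 (0.0508).

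Gm11454 (chromosome 2, 163122606 to 163143959) was the weakest of the 5 rises. Its level moved from 0.6 to 3.09 CPM (VTL-153), from 0.401 to 5.401 CPM (VTL-25) and from 0.270 to 3.98 CPM (VTL-21). The groups did not overlap, and the levels with Dox fell among those of the independent tumours (2.87 to 6.75 CPM over both conditions). Of the dependent tumours VTL-24 had 2.151 CPM and VTL-19 had 0.05255 CPM. The log2 change was 3.30 (SE 0.59, adjusted p = 0.0448), and its neighbour Mybl2, a cell-cycle transcription factor gene, had a log2 change of 0.24 (SE 0.35, adjusted p = 0.811). The call was lost by limma voom (adjusted p = 0.0805) and when any 1 of the 6 tumours was left out, VTL-25 giving the highest value (0.173).

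Gm16938 (chromosome 7, 98177194 to 98179401) fell. It had 43, 59 and 63 counts (2.15, 2.36 and 2.83 CPM) without Dox in VTL-153, in VTL-25 and in VTL-21, and 0, 0 and 1 counts with Dox. The ratio of the summed levels, 165 counts against 1, was 148, with an exact 95% interval of 26.2 to 5880 that covers counting error only. The adjusted p was 0.0385, and the call was lost when any 1 of the 6 tumours was left out, with values up to 0.135 without VTL-25. VTL-19 had 3.84 CPM, but VTL-24 had 2 counts, and the independent tumours without Dox had 4, 6 and 1. Gm16938 overlaps Capn5, which encodes a calpain protease, on the opposite strand, with starts 1080 bases apart and no exonic base in common. Capn5 fell from 79.4, 108 and 226 CPM to 0.809, 1.04 and 3.34 CPM in the same pairs (log2 change -6.43, SE 0.68, adjusted p = 0.0142), and was likewise high in VTL-19 (179 CPM) and low in VTL-24 (13.98 CPM).

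**Figure D1:**
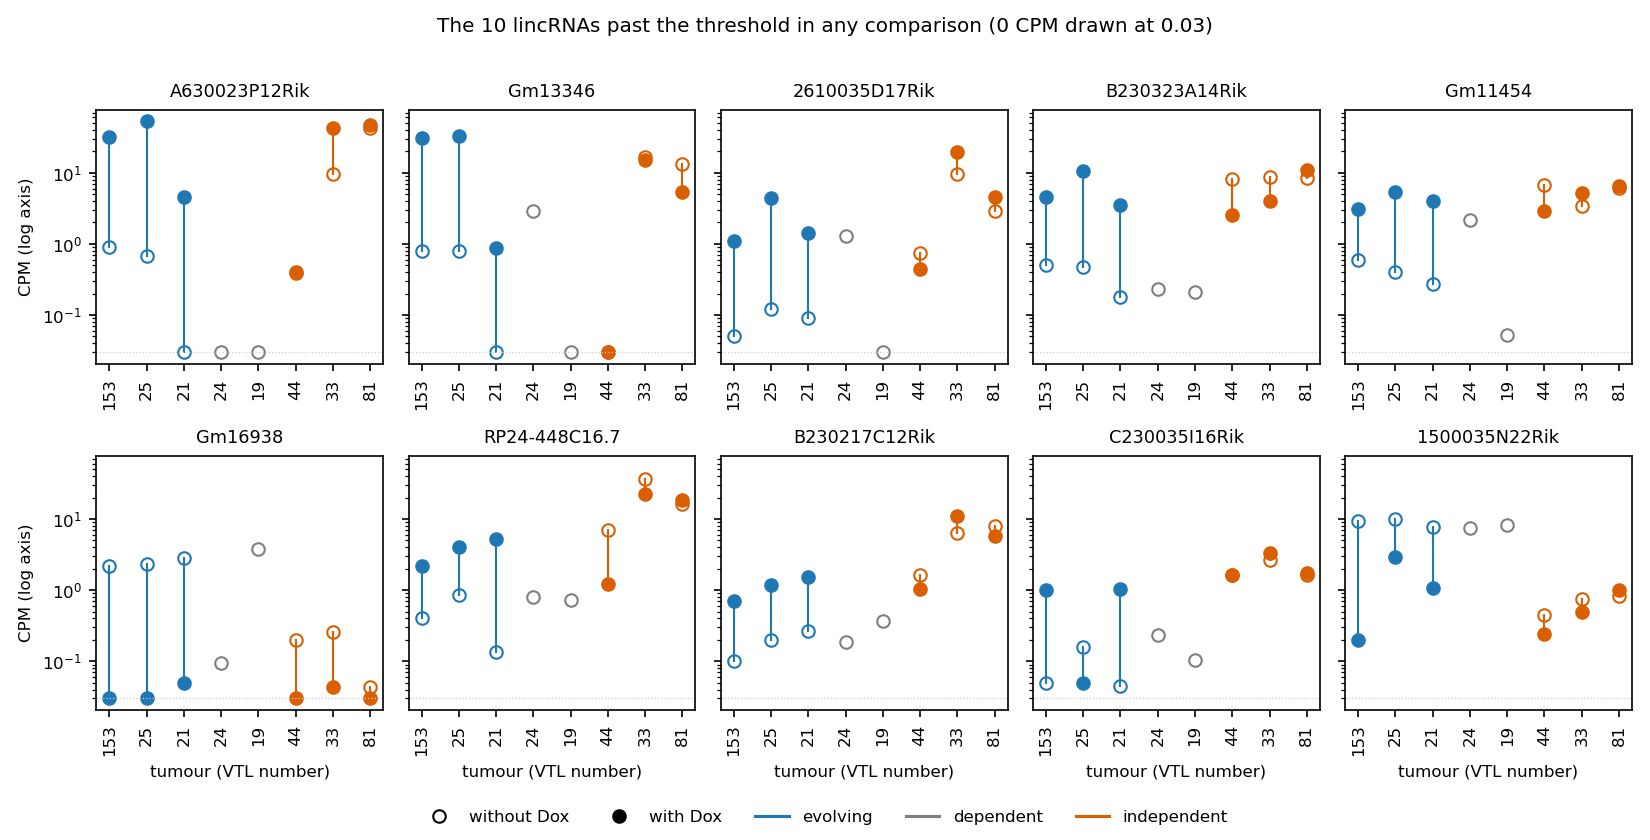
Level of the 10 lincRNAs past the threshold in any comparison, in CPM on a log axis, for each of the 8 tumours. Open points are libraries without Dox, filled points libraries with Dox, and lines join libraries of 1 tumour. Colours give the class, and 0 CPM is drawn at 0.03. For the first 6 panels the evolving tumours lie apart between conditions, and VTL-44 lies below VTL-33 and VTL-81 for A630023P12Rik and Gm13346.

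A separate rule asked for at least a 2-fold change in the same direction in all 3 evolving pairs. The higher library of each pair had to hold at least 1 CPM. By this description, which is no test, 6 lincRNAs were high with Dox (2.71%, against 1.71% of all 12421 genes) and 6 were low (2.71%, against 2.59%). The share of low ones was near that of all genes. The high ones were A630023P12Rik, 2610035D17Rik, B230323A14Rik, Gm11454, RP24-448C16.7 and 6430562O15Rik. Gm13346 was left out because VTL-21 with Dox stayed under 1 CPM. RP24-448C16.7 went from 0.400 to 2.18 CPM, 0.841 to 4.01 CPM and 0.135 to 5.21 CPM in VTL-153, in VTL-25 and in VTL-21 (log2 change 3.13, SE 0.77, adjusted p = 0.102). The low ones were Gm16938, 1500035N22Rik, Gm16619, AI854703, B230344G16Rik and Gm26682.

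Most of the low ones did not pass the test. That all 3 pairs agreed in direction was required by the rule that picked them. Gm26682 went from 7.20, 3.93 and 5.17 CPM to 0.961, 0.198 and 1.57 CPM (log2 change -2.88, SE 0.58, adjusted p = 0.0635). AI854703 went from 3.75, 2.28 and 2.74 CPM to 0, 0.198 and 0 CPM (adjusted p = 0.137). B230344G16Rik, which overlaps the integrin gene Itgb4 on the opposite strand, went from 7.60, 8.70 and 8.67 CPM to 0.860, 1.24 and 1.28 CPM (-2.90, SE 1.12, adjusted p = 0.263). In the independent tumours, which share the estimate of spread in this fit, B230344G16Rik ran from 0 to 5.21 CPM. Gm16619 went from 3.30, 2.69 and 1.75 CPM to 0.405, 0.149 and 0.393 CPM (-3.05, SE 0.76, adjusted p = 0.122).

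In the independent tumours no lincRNA passed for Dox, nor did any of the 12360 genes (0%). At an unadjusted p under 0.05 there was 1 lincRNA of 218 (0.459%, against 0.704% of all genes), and DESeq2 and limma voom called 0 lincRNAs and 0 genes in all. The smallest p belonged to Gm16938 (log2 change -3.13, SE 1.26, adjusted p = 1), Snhg12 (-0.47, SE 0.21, adjusted p = 1) and Gm16619 (-1.93, SE 0.92, adjusted p = 1). Only 3.21% of the lincRNAs had a fitted change of at least 2-fold there, against 3.44% of all genes.

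Whether the Dox change differed between the 2 classes was tested as a term of the same fit. No lincRNA passed, against 0.121% of all genes. An unadjusted p under 0.05 was reached by 25 of 218 (11.5%, against 9.53% of all genes). DESeq2 called 8 lincRNAs (3.67%, against 4.44% of all genes) and limma voom 1 (0.459%, against 0.558%). The smallest p belonged to Gm13346 (independent minus evolving -6.13, SE 0.71, adjusted p = 0.0788), B230323A14Rik (-4.77, SE 0.77, adjusted p = 0.0907) and A630023P12Rik (-5.09, SE 0.88, adjusted p = 0.109). Gm13346 passed by DESeq2, by limma voom and without VTL-21 (adjusted p = 0.0451). Over its alternatives the adjusted p of Gm13346 ran from 4.9e-11 to 0.902.

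Without Dox, the independent tumours stood apart in 5 lincRNAs. Of 220 tested, 4 were higher than the average of the other 2 classes (1.82%, against 0.648% of all 12348 genes) and 1 was lower (0.455%, against 0.948%). B230323A14Rik, described above, was the first. The descriptive rule of at least 2-fold between the lowest library of one side and the highest of the other, with at least 1 CPM in every high library, named the same 4 as high (against 0.869% of all genes). Without any 1 of VTL-153, VTL-25, VTL-24 and VTL-33 the count of 5 fell to 1, without VTL-19 or VTL-81 to 2 and without VTL-21 to 3, and it rose to 8 without VTL-44. The share of all genes called with 1 tumour left out is not given here. Limma voom called 2 lincRNAs (0.909%, against 0.437% of all genes) and DESeq2 28 (12.8%, against 10.5%). In bulk samples fewer cells of a type and less RNA per cell cannot be told apart, and the part of other cells in these differences was not tested. The 4 measured stromal markers of 9 listed were Col1a1, Col1a2, Pecam1 and Pdgfrb. Col3a1, Sparc, Cdh5, Kdr and Cxcl12 had no row in the table. The sum of the 4 was 257 to 630 CPM in the independent tumours without Dox against 142 to 181 CPM in the others. The 11 myeloid markers summed to 72.6 to 1490 CPM against 17.6 to 223 CPM. In the evolving pairs the stromal sum went from 155 to 181 CPM without to 180 to 270 CPM with Dox, and the myeloid sum was lower with Dox in VTL-153 and VTL-25 and higher in VTL-21 (194 against 17.6 CPM). The sum of 6 erythroid markers was 170 CPM with against 6.52 CPM without Dox in VTL-21, and 0.455 against 3.6 and 8.62 against 9.26 CPM in VTL-153 and VTL-25. Of 4 listed natural killer cell markers only Gzma was measured, as Ncr1, Klrb1c and Klre1 had no row in the table. Gzma was at 70.7 to 857 CPM in the independent and 91.7 to 338 CPM in the other tumours without Dox. With Dox it had 374 CPM in VTL-153, against 91.7 CPM without, 290 against 95.7 CPM in VTL-25 and 141 against 193 CPM in VTL-21.

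RP24-448C16.7, named Gm3716 in M21, lies on chromosome 5 (64593857 to 64610700). It stood at 7.00, 36.1 and 16.4 CPM in VTL-44, in VTL-33 and in VTL-81 without Dox, at 0.135 to 0.841 CPM in the evolving and at 0.795 and 0.736 CPM in the dependent tumours. The lowest independent tumour was above every other tumour. The log2 difference was 5.04 (SE 0.72, adjusted p = 0.0387). With Dox VTL-44 lay below the evolving tumours, at 1.22 CPM against 2.18 to 5.21 CPM, while VTL-33 and VTL-81 stayed at 22.1 and 18.5 CPM. Klf3, a Krüppel-like transcription factor gene and its nearest listed protein-coding gene at 192688 bases, did not pass (1.26, SE 0.59, adjusted p = 0.310). The call was lost by limma voom and without any 1 of VTL-153, VTL-25, VTL-24, VTL-19, VTL-33 and VTL-81, with adjusted p from 0.0736 to 0.101 for these tumours.

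B230217C12Rik (chromosome 11, 97840780 to 97844099), typed as protein coding in M21, was at 1.64, 6.39 and 8.06 CPM in VTL-44, in VTL-33 and in VTL-81 and at 0.100 to 0.368 CPM in the 5 other tumours. C230035I16Rik (chromosome 13, 23427975 to 23431022) was at 1.64, 2.69 and 1.64 CPM and at 0.0449 to 0.234 CPM in the other 5. Neither overlapped between the sides. The log2 differences were 4.51 (SE 0.68, adjusted p = 0.0387) and 3.97 (SE 0.66, adjusted p = 0.0406). Both rest on few counts, since C230035I16Rik had 1 to 5 counts in each tumour of the other classes. Both calls were lost by limma voom and when any tumour but VTL-44 was left out, with adjusted p up to 0.116 for B230217C12Rik (without VTL-25) and 0.126 for C230035I16Rik (without VTL-19). Their neighbours Lasp1, an actin-binding protein gene, and Abt1, a nuclear protein gene, differed by 0.40 (SE 0.17, adjusted p = 0.258) and 0.22 (SE 0.17, adjusted p = 0.532).

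The lincRNA that was low in independent tumours was 1500035N22Rik (chromosome 5, 24985842 to 24998168). It stood at 9.30, 9.98 and 7.60 CPM in VTL-153, in VTL-25 and in VTL-21, at 7.57 and 8.25 CPM in VTL-24 and VTL-19, and at 0.447, 0.739 and 0.819 CPM in VTL-44, in VTL-33 and in VTL-81. The 5 high tumours lay within a narrow band, far above the 3 low ones. The log2 difference was -3.64 (SE 0.36, adjusted p = 0.0150). With Dox the evolving tumours stood at 0.202, 2.92 and 1.08 CPM, lower in 3 of 3, but the change did not pass (-3.19, SE 0.80, adjusted p = 0.105). The lincRNA lies across Prkag2, the gene of a regulatory subunit of AMP-activated protein kinase, on the opposite strand and with no exonic base in common. Prkag2 was at 78.7 to 170 CPM in the evolving and dependent tumours and at 32.9 to 35.5 CPM in the independent tumours without Dox (-1.83, SE 0.28, adjusted p = 0.0387). In the evolving tumours it fell with Dox (-1.62, SE 0.15, adjusted p = 0.0111). The class call of 1500035N22Rik was lost without VTL-153 (adjusted p = 0.0541), VTL-25 (0.0817) or VTL-33 (0.0645).

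By the descriptive rule 4 further lincRNAs were low in independent tumours, Gm15411, Gm33280, AI854703 and 2900079G21Rik, which makes 5 (2.26%, against 0.99% of all genes). Gm15411 stood at 11.6 to 15.5 CPM in the 5 other tumours and at 5.46, 4.82 and 2.42 CPM in VTL-44, in VTL-33 and in VTL-81 (-1.74, SE 0.32, adjusted p = 0.0538). The range of 2900079G21Rik was 14.4 to 26.2 CPM against 0.604 to 7.17 CPM (-1.93, SE 0.71, adjusted p = 0.208). AI854703 had 2.28 to 5.75 CPM in the others and 0, 0.304 and 0.949 CPM in VTL-44, in VTL-33 and in VTL-81 (adjusted p = 0.178).

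**Figure D2:**
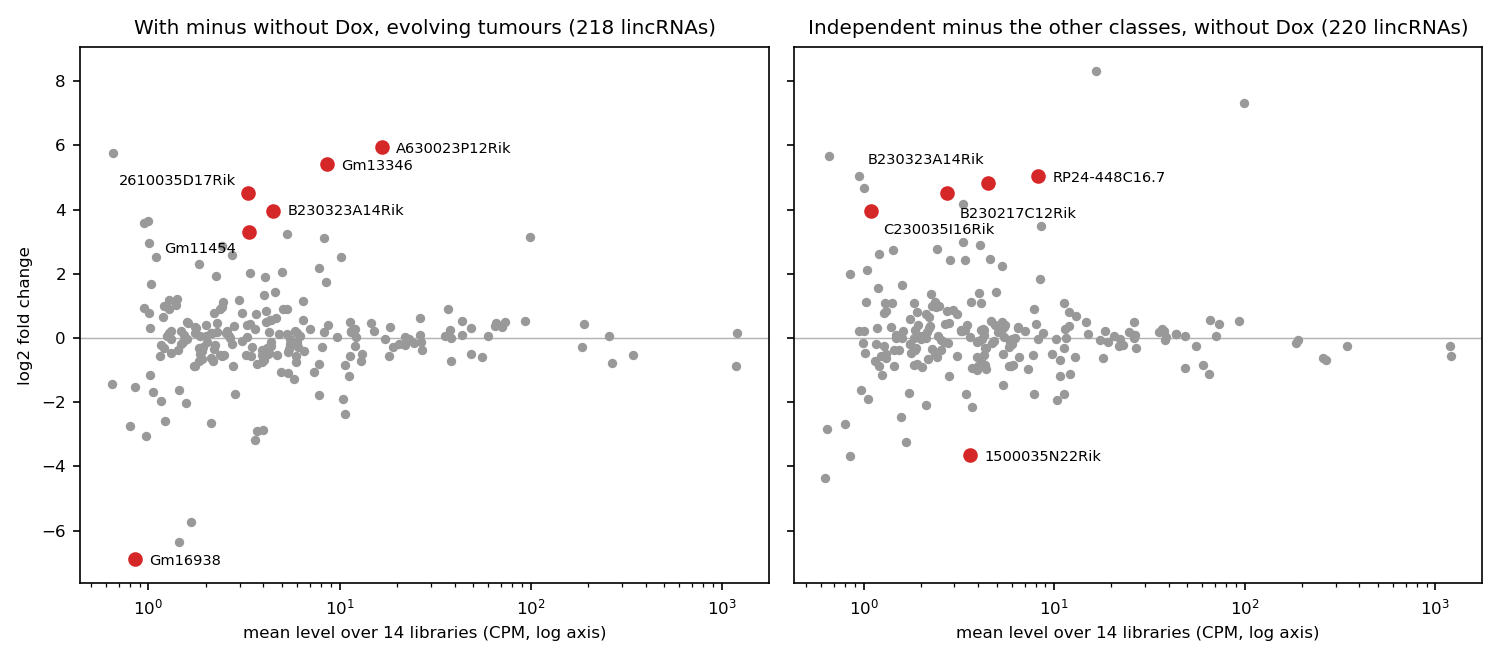
Log2 fold change of each tested lincRNA against its mean level over 14 libraries (CPM, log axis), for Dox in the evolving tumours (left, 218 lincRNAs) and for the independent class without Dox (right, 220 lincRNAs). Named points in red passed the threshold. The called lincRNAs all lie under 20 CPM.

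No lincRNA was specific to the other 2 classes by the test. For the evolving class without Dox 0 of 220 passed by edgeR, against 0.0486% of all genes, with 23 at an unadjusted p under 0.05 (10.5%, against 8.1% of all genes). DESeq2 called 6 (2.75%, against 2.13% of all genes) and limma voom 0, as of all genes. The smallest p belonged to 1500035N22Rik (1.95, SE 0.30, adjusted p = 0.189), Gm26917 (1.25, SE 0.28, adjusted p = 0.389) and 1110038B12Rik (-0.60, SE 0.14, adjusted p = 0.407). For the dependent class, with 2 tumours, 0 of 220 passed by edgeR, against 0.0405% of all genes, with 19 at an unadjusted p under 0.05 (8.64%, against 6.96% of all genes). DESeq2 called 5 (2.29%, against 1.86% of all genes) and limma voom 0, as of all genes. The smallest p belonged to 1500035N22Rik (1.69, SE 0.31, adjusted p = 0.297), B230323A14Rik (-3.0, SE 0.56, adjusted p = 0.311) and Gm17322 (-3.49, SE 0.79, adjusted p = 0.363).

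Gm17322 was the 1 lincRNA that met the descriptive rule for these classes, as low in dependent tumours (against 0.113% of all genes). It had 0.281 and 0.368 CPM in VTL-24 and VTL-19, 1.32 to 4.45 CPM in the evolving and 2.89 to 8.49 CPM in the independent tumours. No lincRNA was high in dependent tumours (0.0483% of all genes were), high in evolving tumours (0.105%) or low in evolving tumours (0.0403%).

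With Dox, the independent tumours were set against the evolving ones directly. None of 209 lincRNAs passed edgeR's test, nor did any of 12093 genes (0%), with 4 lincRNAs at an unadjusted p under 0.05 (1.91%, against 4.74% of all genes). DESeq2 called 1 lincRNA (0.481%, against 0.784% of all genes) and limma voom 0, against 0.00827% of all genes. The smallest p belonged to 5830416P10Rik, named Mirt1 in M21, which stood at 61.0, 120 and 94.4 CPM in VTL-153, in VTL-25 and in VTL-21 with Dox and at 20.6, 29.8 and 39.5 CPM in VTL-44, in VTL-33 and in VTL-81. The difference was -1.63 (SE 0.33, adjusted p = 0.974). C430042M11Rik (-1.88, SE 0.67, adjusted p = 0.974) and Gm16086 (-2.17, SE 0.80, adjusted p = 0.974) followed. Of B230323A14Rik, the levels with Dox overlapped, at 3.49 to 10.7 CPM in the evolving and 2.58 to 10.8 CPM in the independent tumours.

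Single tumours stood out in a few lincRNAs, at a share near that of all genes. By a rule set after the values were seen, at least 5 CPM in 1 tumour without Dox and at least 5-fold above the next, 3 of 221 lincRNAs were picked (1.36%, against 1.88% of all genes). 5830405F06Rik lies within the T-cell receptor beta locus (chromosome 6, 41055883 to 41063102), and its span holds the variable segments Trbv4 and Trbv5. It had 426 CPM without and 534 CPM with Dox in VTL-44, and at most 11.1 CPM in any other tumour without Dox. In VTL-25 it had 5.93 CPM without and 351 CPM with Dox, in VTL-153 4.10 and 31.7 CPM, and in VTL-21 it stayed at 2.02 and 1.92 CPM. The change over the 3 did not pass (3.15, SE 1.11, adjusted p = 0.220).

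The variable segment that led in a library is a partial mark of its T-cell clone, since a clone expresses the segment that it has rearranged. Trbv24 and Trbv2 each led in several tumours here. Whether tumours with the same leading segment share a clone was not tested. In VTL-25 without Dox the leading segment was Trbv24 (238 CPM), with Trbv5 at 3.73 CPM. With Dox Trbv5 led (270 CPM), and Trbv24 had no count. Trbv5 shares 292 of the 2347 exonic bases of 5830405F06Rik on the same strand, so that part of the lincRNA's counts cannot be told apart from the segment. In VTL-44 Trbv5 had no count in either library and Trbv19, outside the lincRNA, led with 840 and 1007 CPM. Trbv4 had no row in the table. VTL-33, VTL-153 and VTL-21 led with Trbv24 under both conditions, and VTL-24, VTL-19 and VTL-81 with Trbv2. The second segment changed in VTL-21, where Trbv13-1 had 39.64 CPM without and 0.1473 CPM with Dox. With Dox Trbv13-2 was next there, at 7.465 CPM. In VTL-153 Trbv13-1 stayed second, at 101.1 CPM without and 118.9 CPM with Dox.

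**Figure D3:**
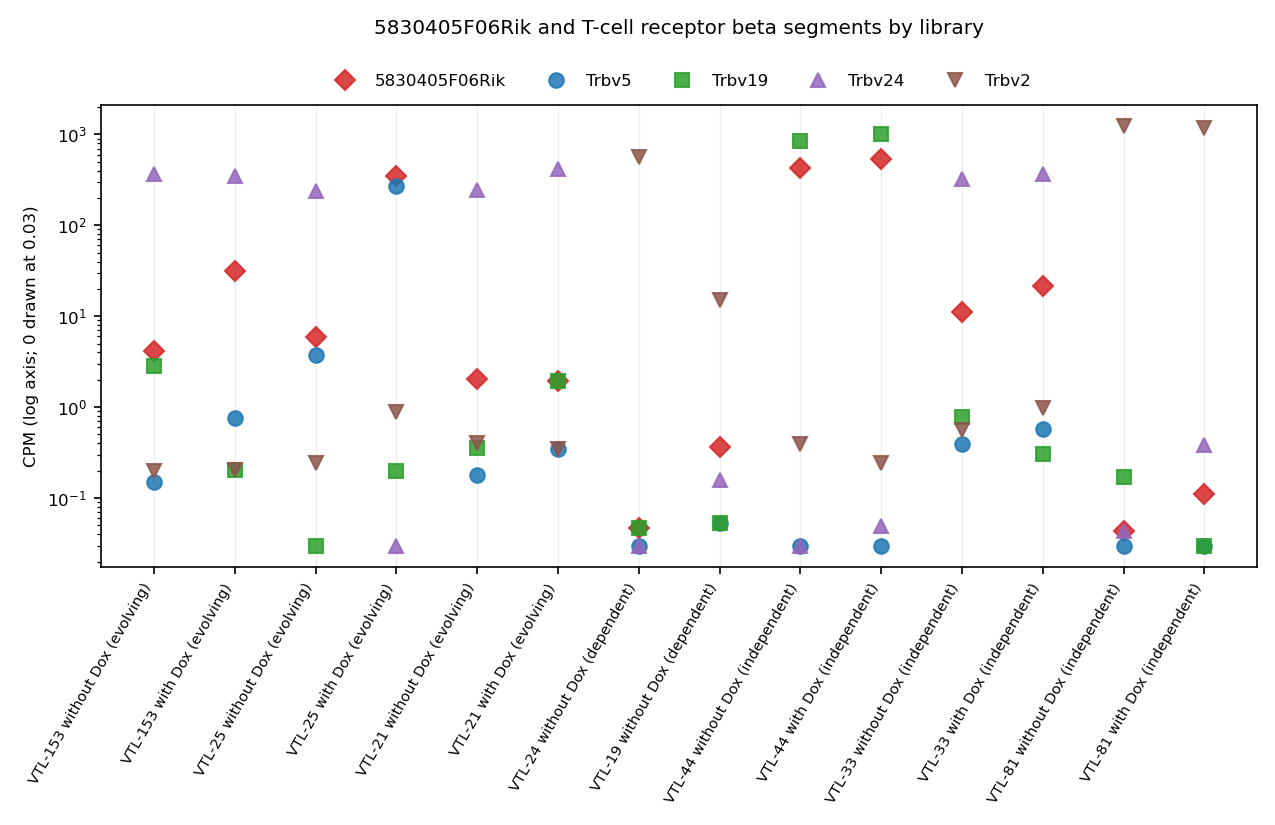
Level of 5830405F06Rik and of 4 variable segments of the T-cell receptor beta locus in each of the 14 libraries (CPM, log axis, 0 drawn at 0.03). The lincRNA is high with Trbv5 in VTL-25 with Dox and without Trbv5 in both libraries of VTL-44.

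Another pair of lincRNAs met the single-tumour rule. 2810429I04Rik had 7.46 CPM without and 5.92 CPM with Dox in VTL-81 and at most 0.197 CPM in any library of another tumour. RP23-148G12.3 had 21.6 and 9.60 CPM in VTL-44, against at most 3.80 CPM in the other tumours without Dox. AI662270, a lincRNA next to Schlafen genes on chromosome 11 that was singled out after its values were seen, shares 491 of its 3029 exonic bases with Gm11427 on the same strand. It had 121 to 426 CPM in the other libraries and 4.41 CPM in VTL-33 with Dox, where the library without Dox had 183 CPM. Its nearest listed protein-coding gene, Slfn3, was at 49.6 and 44.8 CPM in those 2 libraries.

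None of the well studied lincRNAs passed the threshold for Dox in the evolving tumours or for the independent class. Of the small nucleolar RNA hosts 8 of 20 listed were in the table (Snhg4, Snhg5, Snhg6, Snhg8, Snhg12, Snhg17, Snhg20 and Epb4.1l4aos), and none passed. For Dox in the evolving tumours all 8 had a positive log2 change with a median of 0.33, against a median of -0.0022 over all genes tested, and for the independent class all 8 were positive with a median of 0.17, against 0.033. Snhg6 had the largest Dox change, from 29.9, 19.9 and 19.0 CPM to 49.3, 53.3 and 28.0 CPM in VTL-153, in VTL-25 and in VTL-21 (0.90, SE 0.21, adjusted p = 0.0830). Its levels with Dox in VTL-21 stayed below those of VTL-153 without it. Snhg17 (0.54, SE 0.15, adjusted p = 0.124) and Snhg8 (0.45, SE 0.21, adjusted p = 0.354) followed.

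Of 15 listed microRNA hosts 3 were measured and none passed. Mir17hg, source of the miR-17 to miR-92 cluster, had a log2 change with Dox of -0.04 (SE 0.44, adjusted p = 0.978), Mir142hg of 0.48 (SE 0.31, adjusted p = 0.517) and Dleu2, host of miR-15a and miR-16, of 0.30 (SE 0.39, adjusted p = 0.785). Pvt1, which lies beside Myc, was 1 of 4 measured members of 8 listed lincRNAs linked to p53 or MYC. Its level went from 1.80 to 11.8 CPM (VTL-153), from 2.69 to 8.23 CPM (VTL-25) and from 3.46 to 6.83 CPM (VTL-21). The tumours differed in size of change but not in direction, and the change did not pass (1.76, SE 0.40, adjusted p = 0.0805). In the independent tumours without Dox Pvt1 ran from 5.41 CPM in VTL-44 to 18.3 CPM in VTL-33 (class difference 1.85, SE 0.47, adjusted p = 0.106).

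Of 16 nuclear-retained and other well studied lincRNAs, Malat1, Neat1 and Crnde were in the table and did not pass. Neat1 moved from 92.3 to 25.04 CPM (VTL-153) and from 58.2 to 33.6 CPM (VTL-25), but from 42.1 to 98.3 CPM (VTL-21) (log2 change -0.51, SE 0.65, adjusted p = 0.781). Malat1 likewise was lower with Dox in VTL-153 and VTL-25 and higher in VTL-21, at 2233 against 1162 CPM (0.14, SE 0.43, adjusted p = 0.916). The myeloid markers given above moved in the same directions in these 3 pairs, and their part was not tested. Of 6 immune lincRNAs 2 were measured, Mir142hg and AW112010, of which the latter ranged from 0.0496 to 7.99 CPM with no call. None of 9 imprinted lincRNAs had a row among the members.

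Changes of lincRNAs were set beside those of the nearest listed protein-coding gene. Of 215 lincRNAs with a position, 63 had their start within 5 kb of that of the nearest listed protein-coding gene, 58 pairs were divergent, 32 overlapped on opposite strands and 9 overlapped on the same strand. For Dox in the evolving tumours, the log2 changes of lincRNA and neighbour correlated over the 63 near pairs at Pearson's r 0.86 and Spearman's rho 0.48, and over 128 pairs that lay apart at 0.33 and 0.43. For the independent class the near pairs gave 0.82 and 0.34 (63 pairs) and those apart 0.31 and 0.28 (126 pairs). These are descriptions across genes that share the same libraries, with no test, and without Foxb1 with B230323A14Rik and Capn5 with Gm16938 the remaining 61 near pairs gave r 0.57 for Dox and 0.59 for the class. Their Spearman's rho was 0.43 and 0.28, the same as over the pairs apart. The same sign was found in 66.7% of near pairs and 65.6% of pairs apart for Dox.

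**Figure D4:**
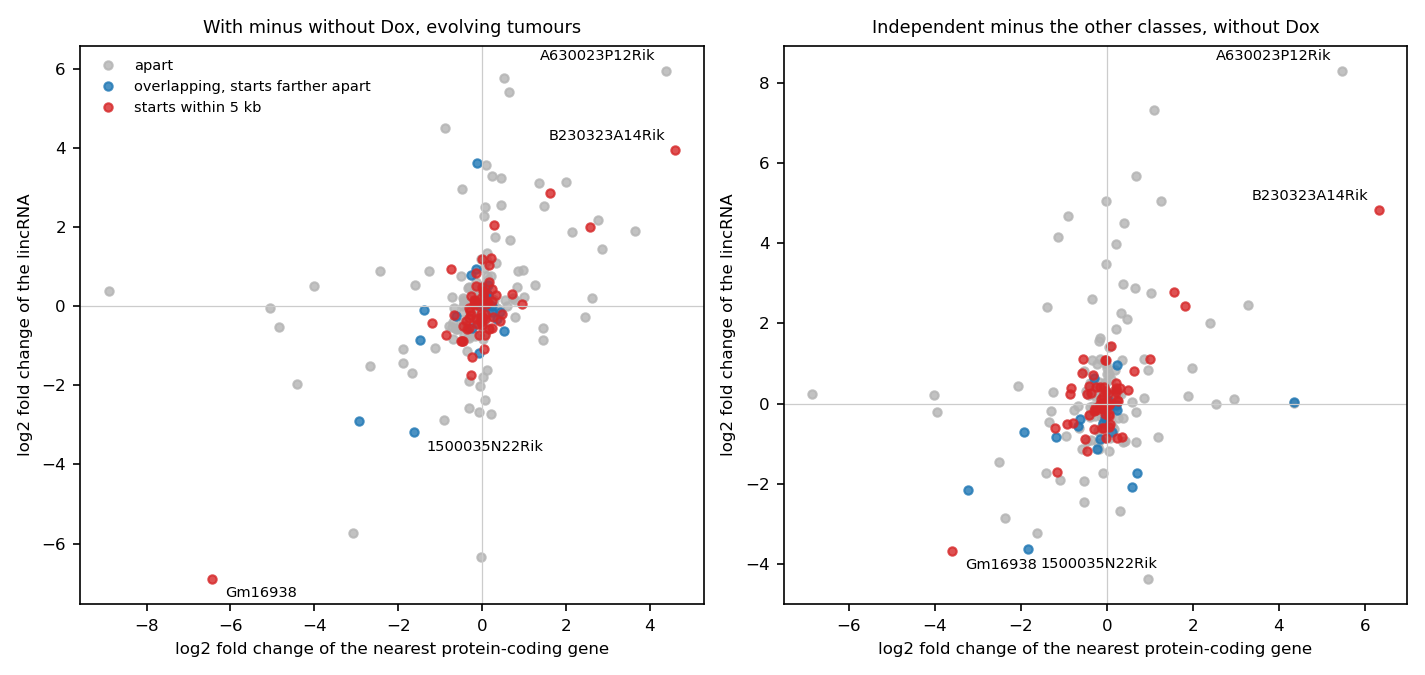
Log2 fold change of each lincRNA against that of its nearest listed protein-coding gene, for Dox in the evolving tumours (left, 212 pairs) and for the independent class without Dox (right, 210 pairs). Red points have starts within 5 kb, blue points overlap with starts farther apart, and grey points lie apart. B230323A14Rik and Gm16938 lie at the ends of the red cloud in the left panel.

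Sema7a, which encodes a membrane-bound semaphorin, is the nearest listed protein-coding gene of Gm17322, 35176 bases away. Without Dox it stood at 4.44 and 5.78 CPM in VTL-24 and VTL-19, within the evolving range of 3.64 to 13.9 CPM. The independent tumours without Dox were at 39.1 to 81.2 CPM (independent class difference 3.28, SE 0.47, adjusted p = 0.0387). Sema7a was thus not low in the dependent class alone, as Gm17322 was. Svil, the supervillin gene and nearest to Gm26682, fell with Dox in the evolving tumours (-0.90, SE 0.14, adjusted p = 0.0299). Gm26682 was lower there in 3 of 3 pairs, as the rule that picked it required, and did not pass. Agfg1, nearest to Gm28942, rose with Dox (1.49, SE 0.19, adjusted p = 0.0182). Gm28942, singled out here because of that neighbour, went from 10.4 to 15.2 CPM, 4.01 to 74.0 CPM and 0.449 to 3.14 CPM in VTL-153, in VTL-25 and in VTL-21 and did not pass (2.53, SE 0.72, adjusted p = 0.140).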

How the data were processed

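The 14 libraries were RNA sequencing of sorted tumour cells, made with the NEBNext Ultra II kit from RNA of high integrity, per the labels' protocols. STAR 2.5.2b, featureCounts and the build mm10 are named in the submitters' processing notes. The strand setting and annotation were not given in the sources used here. The values used were raw counts per gene, whole numbers that the authors deposited without normalization. The table also held 42 per-sample columns on other scales, not used here.

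Counts were fitted over all genes with edgeR 4.0.16 in R 4.3.3 (TMM factors, default filter with a minimum count of 10, robust quasi-likelihood test, p-values adjusted by Benjamini and Hochberg's method across every gene tested, threshold 0.05). Dox was tested in 12 libraries blocked by tumour, with 1 Dox term for each class. Classes were compared over the 8 libraries without Dox, as 1 class minus the average of the other 2, and over the 6 with Dox. Partner libraries carry the same tumour number, but those of VTL-25 differed in their leading T-cell receptor beta segment and those of VTL-21 in their second. As a check of the pairing, deviations from the group means correlated between partners at 0.181, 0.00841 and 0.133 in VTL-153, in VTL-25 and in VTL-21 and at 0.640, 0.711 and 0.546 in VTL-44, in VTL-33 and in VTL-81. No 2 libraries of a group agreed within sampling noise.

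The test was tested on simulated data, in which it recovered 15% of 2-fold and 78% of 8-fold changes for Dox in the evolving tumours, over 12360 genes, with 8 unchanged genes called. For the independent class it recovered 21% and 85% over 12348 genes, with 7 unchanged genes called. For independent against evolving tumours with Dox it recovered 2% and 68% over 12093 genes, with 6 unchanged genes called. The changed genes were drawn from all genes above 1 CPM, and no difference between tumours of a group was simulated beyond random spread. These shares are therefore not those of lincRNAs, whose median level was 3.95 CPM against 38.7 CPM for protein-coding genes. Alternatives were RLE factors, DESeq2 1.42.0, limma voom (limma 3.58.1), no filter, a minimum count of 50, no replicate block and each tumour left out in turn. Named lincRNAs are those past the threshold, the 3 with the smallest p where fewer than 3 passed, those meeting the 2-fold patterns, the 10 most abundant and the measured members of the role lists, with the nearest protein-coding gene of those described in full. The members, lists and rules were chosen with earlier results of these data known.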

Additional observations from a re-analysis of the deposited data

How the results depend on the processing

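Recomputed were the 26 results of lincRNAs that passed a test or had 1 of the 3 smallest p, and none of these changed direction under the alternatives tried. Over their 314 recomputed values, 247 kept their side of the threshold, 55 lost a call and 12 gained one, 10 of the gains by DESeq2. For Dox in the evolving tumours the 6 calls became 26 by DESeq2, 3 by limma voom, 3 if no replicate block was used, and 0 to 7 when 1 tumour was left out. For the independent class the 5 calls became 28 by DESeq2 and 2 by limma voom, and 1 to 8 with 1 tumour left out. From 0 calls, the difference of Dox changes gave 8 by DESeq2, 1 by limma voom and 0 to 1 with 1 tumour left out. From 0 calls, DESeq2 gave 6 for the evolving class, 5 for the dependent class and 1 for independent against evolving tumours with Dox. RLE factors, no filter and a minimum count of 50 left every count within 1.5 times its value. The replicate block changed no other count of calls past that. The 10 class patterns became 5 at 4-fold and 10 to 18 with 1 tumour left out, and the 12 Dox patterns became 17 to 33 with 1 tumour left out, since fewer tumours have to meet the rule. In these cases of DESeq2, limma voom and the replicate block the cause was not tested. Counts with 1 tumour left out or with no replicate block are given for lincRNAs alone, without the share of all genes. Where 1 dependent tumour is left, it is assumed to vary like the others. A median of 56 to 91 counts per lincRNA and library limits what could be detected, and a lincRNA without a call is not shown to be unchanged.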
